A study of Homo sapiens with 21 samples.

Results

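The hedgehog pathway genes described here are GLI1, GLI2, GLI3, PTCH1, SMO, SUFU and HHIP, 7 of the 57820 genes in the count table. They came from a named list of core pathway components, not a rule on measured values, though with earlier results of these data known. All 7 passed the low-count filter, which kept genes averaging 1 or more counts over the libraries. Their RNA was measured by RNA-seq in A673 cells, an Ewing sarcoma cell line driven by the fusion oncoprotein EWS/FLI, in 21 libraries that fall into 7 groups of 3 replicates. The comparisons ask whether hedgehog gene expression depends on EWS/FLI and which features of its EWS domain are needed.

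All cells received an shRNA by retrovirus on day 1 and on day 5 a second retrovirus built in pMSCV-hygro, and all were selected in 2 µg/ml puromycin and then also in 400 µg/ml hygromycin until day 16. The iLuc group received an shRNA against luciferase and an empty vector and so kept endogenous EWS/FLI. The iEF group received an shRNA against EWS/FLI and an empty vector. The other 5 groups received the iEF shRNA and a FLAG-tagged cDNA. WT-EF is wildtype EWS/FLI, mut9 lacks a large internal part of the EWS domain, and DAF has tyrosine-to-alanine changes in the N-terminal EWS repeats but an intact SYGQ2 region. DAF-mut9 is the mut9 form with its repeat tyrosines also changed to alanine, and Δ22 lacks the EWS domain. Every library came from the same cell line, and the cDNAs were delivered by retrovirus, outside the native locus. In the count table the DAF-mut9 columns carry the name mut9d, which was matched through the titles, and values for DAF-mut9 rest on that match.

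Hedgehog ligands are secreted proteins that bind the receptor PTCH1. Without ligand PTCH1 holds the membrane protein SMO inactive, and the GLI transcription factors are kept in check by SUFU and by processing of GLI3, and partly of GLI2, to repressors. With ligand SMO is released at the primary cilium, GLI2 and GLI3 act as activators, and GLI1, PTCH1 and HHIP are transcribed as pathway targets, so that their RNA is commonly used as a readout of pathway activity. GLI1 has no repressor form, and PTCH1 and HHIP feed back on the pathway by binding ligand. In Ewing sarcoma GLI1 is also known as a gene activated by EWS/FLI.

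In the GRCh37 annotation, which has the coordinates of the hg19 build named by the submitters, the genes lay on 6 chromosomes. GLI1 (ENSG00000111087) was at chr12:57853568-57866051 on the plus strand and PTCH1 (ENSG00000185920) at chr9:98205262-98279339 on the minus strand. SMO (ENSG00000128602) was at chr7:128828474-128853386 and SUFU (ENSG00000107882) at chr10:104263729-104393292, both on the plus strand. GLI2 (ENSG00000074047) was at chr2:121493199-121750229 on the plus strand, GLI3 (ENSG00000106571) at chr7:42000547-42303699 on the minus strand, and HHIP (ENSG00000164161) at chr4:145567308-145666423 on the plus strand. The strand setting of the counting was not given in the sources used here. Of the exon bases of PTCH1, 711 overlapped the exons of the long noncoding gene ENSG00000271155 on the other strand, and HHIP shared 813 with HHIP-AS1, SMO 129 with ENSG00000243230 and GLI1 5 with ARHGAP9. Counts of PTCH1, HHIP and SMO are uncertain to that extent, while GLI2, GLI3 and SUFU shared no exon bases with another gene.

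The promoter sequences of 3 genes are shown because PTCH1 and SMO rose and GLI2 fell with endogenous EWS/FLI, and because the letters bound by GLI factors and by ETS factors such as FLI can be read in them. RefSeq promoter windows of 300 bases (250 before the start and 50 after it, GRCh38.p14) were matched for PTCH1 (5 windows), GLI2 (2 windows), SMO, SUFU and HHIP (1 window each), and for GLI1 and GLI3 none were matched. Each sequence is the part of 250 bases before the start, written 5′ to 3′ on the strand of the gene. In PTCH1 the capitals mark the GLI consensus, and in SMO and GLI2 they mark each ETS core, GGAA or its other strand TTCC. The PTCH1 sequence is at chr9:95509267-95509516 on the minus strand and belongs to the second of its 5 starts, the SMO sequence is at chr7:129188383-129188632 on the plus strand, and the GLI2 sequence is at chr2:120735618-120735867 on the plus strand.
PTCH1: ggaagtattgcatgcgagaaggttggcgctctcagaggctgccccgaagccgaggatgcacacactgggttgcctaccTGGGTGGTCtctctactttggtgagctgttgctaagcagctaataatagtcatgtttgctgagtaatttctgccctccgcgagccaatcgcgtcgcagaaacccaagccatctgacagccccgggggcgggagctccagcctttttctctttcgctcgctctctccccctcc
SMO: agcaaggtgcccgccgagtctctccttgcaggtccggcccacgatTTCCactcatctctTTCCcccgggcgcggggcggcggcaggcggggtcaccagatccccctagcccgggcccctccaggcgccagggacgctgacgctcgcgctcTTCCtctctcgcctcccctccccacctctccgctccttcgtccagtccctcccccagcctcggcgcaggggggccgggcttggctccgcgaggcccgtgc
GLI2: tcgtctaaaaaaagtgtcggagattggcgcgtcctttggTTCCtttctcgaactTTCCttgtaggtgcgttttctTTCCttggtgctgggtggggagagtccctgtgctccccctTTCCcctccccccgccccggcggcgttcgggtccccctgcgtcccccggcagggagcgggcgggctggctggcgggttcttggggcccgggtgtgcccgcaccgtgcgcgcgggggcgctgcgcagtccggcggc

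The GLI consensus GACCACCCA (other strand TGGGTGGTC) was present in this PTCH1 window, beginning 172 bases before the start, and in no other window of these genes. It was present in 83 of all 35116 windows, or 0.236%. The ETS core was present in every window of these genes, as in 95.5% of all windows, which held a median of 3. The extended ETS letters CAGGAAG (other strand CTTCCTG, which includes the core) were present in 1 of the 5 PTCH1 windows and in 12.7% of all windows. A pair of adjacent cores, GGAAGGAA or TTCCTTCC, were in none of the windows of these genes and in 3.67% of all windows. EWS/FLI also binds longer GGAA repeats, and the nearest run of at least 4 GGAA units in GRCh37 began 1.86 kb from the start of GLI3, 38.3 kb from GLI2, 52.8 kb from SUFU, 83.2 kb from PTCH1, 205 kb from GLI1, 236 kb from HHIP and 280 kb from SMO. Over 16404 coding genes the median distance was 86.9 kb, and 3.62% of genes had such a run within 5 kb. These matches describe letters and distances, and binding was not measured here.

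Library totals were between 32.9 and 46.2 M counts (M, mega), and 1 CPM (counts per M of the library total, scaled by edgeR's TMM factors) was worth 32.0 to 45.2 counts. FLI1, whose row collects reads of the fusion and of the cDNAs, was at 20.6 ± 0.553 CPM (SD, n = 3) in iEF and 70.3 ± 16.2 CPM in iLuc, in the direction of the labels. In the rescue groups it was at 24.5 CPM in WT-EF, 30.7 in mut9, 37.02 in DAF, 36.3 in DAF-mut9 and 49.5 in Δ22. The WT-EF level was not called over iEF (log2 fold change 0.24, adjusted p = 0.1964), whereas those of the other 4 rescue groups were. FLI1 was thus lowest in WT-EF and highest in Δ22 among the rescue groups, and the part of construct transcript level in the hedgehog values was not tested. Of 8 Ewing sarcoma markers CD99 was at or below 0.219 CPM in every library, lower than the cell label would have it. Whether this low count came from the cells or from the alignment and counting of reads was not tested. NKX2-2 and CCK were also low in some groups. Mean NKX2-2 was 0.978 CPM in iEF, 1.65 in DAF-mut9, 1.32 in Δ22 and 8.98 in iLuc. Mean CCK was 0.819 CPM in iEF, 0.417 in DAF-mut9, 0.502 in Δ22 and 8.09 in iLuc. NR0B1 ranged from 5.28 to 60.1 CPM, and STEAP1, STEAP2, PRKCB and BCL11B were at 14.4 CPM or more in every library. Leukocyte, endothelial and red cell markers did not exceed 3.14 CPM. Of the epithelial markers only KRT18 was present, at 28.5 to 115.7 CPM, with the lowest group mean in iLuc (31.3 CPM) and the highest in Δ22 (73.1 CPM), and its part in the results was not tested. Fewer cells that express a gene and less RNA per cell cannot be told apart in such libraries. The p-values measure the spread between these replicates.

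Endogenous EWS/FLI was accompanied by higher GLI1, PTCH1 and SMO and by lower GLI2, GLI3 and SUFU. A gene was called at a Benjamini-Hochberg adjusted p below 0.05 in edgeR's quasi-likelihood test over 30549 genes. In iLuc against iEF 6 of the 7 hedgehog genes were called, where 41.1% of all tested genes were. In WT-EF against iEF 5 were called (28.3% of all tested genes), namely GLI1, PTCH1 and SMO as higher and GLI2 and GLI3 as lower. In mut9 against iEF 3 were called (14.6% of all), with GLI1 and PTCH1 higher and GLI2 lower. These 3 comparisons share the iEF libraries, as do those of DAF, DAF-mut9 and Δ22.

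In DAF, DAF-mut9 and Δ22 none of GLI1, PTCH1 and SMO passed the test against iEF. In DAF against iEF 2 of the 7 genes were called (7.42% of all tested genes), GLI2 and GLI3, both lower. In Δ22 against iEF only GLI2 was called, as lower (1 of 7, against 2.67% of all tested genes). In DAF-mut9 against iEF edgeR called 0 of the 7 (3.4% of all tested genes), DESeq2 also called 0, and 1 gene, GLI2, had an unadjusted p below 0.05. With so many genes called in iLuc and WT-EF, the number of hedgehog genes called says little by itself, and the individual values follow by role.

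**Figure D1:**
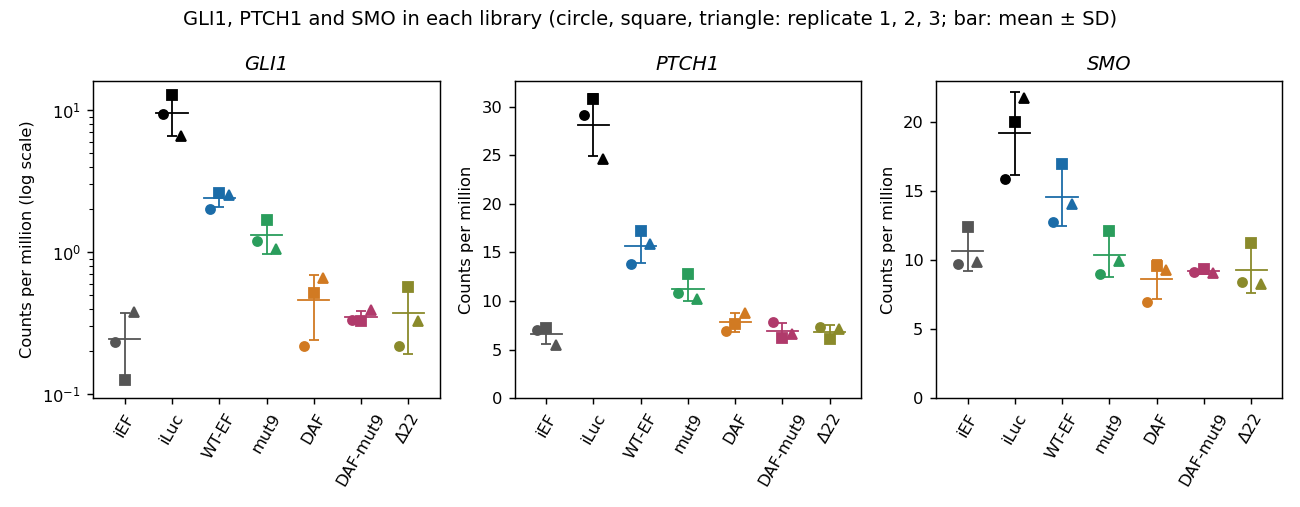
Level of GLI1 (log axis), PTCH1 and SMO in CPM in each of the 21 libraries, by group, with the mean and SD of 3 replicates. GLI1 and PTCH1 lie highest in iLuc, lower in WT-EF and mut9, and in DAF, DAF-mut9 and Δ22 overlap iEF.

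PTCH1, the receptor that restrains SMO and itself a GLI target, was measured at 29.1, 30.8 and 24.6 CPM in the 3 iLuc libraries and at 7.05, 7.20 and 5.43 CPM in iEF. The WT-EF libraries were at 13.8, 17.2 and 15.9 CPM and the mut9 libraries at 10.8, 12.8 and 10.24 CPM. Every iLuc, WT-EF and mut9 library lay above all iEF libraries, with no overlap between iLuc, WT-EF and mut9. PTCH1 was at 6.93, 7.66 and 8.79 CPM in DAF, at 7.86, 6.23 and 6.64 CPM in DAF-mut9 and at 7.32, 6.05 and 7.09 CPM in Δ22, and each of these groups overlapped iEF.

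The log2 fold change of PTCH1 over iEF was 2.10 ± 0.16 (SE) in iLuc (adjusted p = 1.045e-09), 1.26 ± 0.16 in WT-EF (adjusted p = 2.998e-06) and 0.78 ± 0.16 in mut9 (adjusted p = 0.001376). Within the replicate sets the iLuc difference was 2.04, 2.09 and 2.17 (log2 CPM with a prior count of 2). The WT-EF mean was 55.5% of the iLuc mean, with 42.0% of the gap to iEF covered, and the difference between WT-EF and iLuc was -0.85 ± 0.15 on the log2 scale (adjusted p = 0.0004062). In DAF the log2 fold change over iEF was 0.25, with a 95% interval from -0.075 to 0.58 (adjusted p = 0.4186). In DAF-mut9 it was 0.080 (interval -0.25 to 0.41) and in Δ22 0.062 (interval -0.27 to 0.39), so differences as large as that of mut9 lay outside these intervals.

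HHIP, a membrane protein that captures hedgehog ligand and another pathway target, was near the limit of detection. It had between 5 and 24 counts in each of the 21 libraries, and its group means ran from 0.286 CPM in DAF-mut9 to 0.478 CPM in mut9. The iLuc libraries were at 0.205, 0.4199 and 0.401 CPM and the iEF libraries at 0.350, 0.219 and 0.513 CPM. Its log2 difference between iLuc and iEF was -0.055, with a 95% interval from -0.95 to 0.84 (adjusted p = 0.9402), and HHIP was not called in any comparison. A change of the size seen for PTCH1 lay outside this interval, while changes within the interval could not be told from none at this depth.

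SMO, the membrane transducer that PTCH1 holds inactive, was at 15.8, 19.96 and 21.7 CPM in iLuc and at 9.73, 12.4 and 9.86 CPM in iEF. It was at 12.7, 16.9 and 14.0 CPM in WT-EF, at 8.99, 12.1 and 9.95 CPM in mut9 and at 6.99, 9.56 and 9.26 CPM in DAF. The iLuc and WT-EF libraries all lay above those of iEF, whereas mut9 overlapped iEF and all DAF libraries lay below it. In DAF-mut9 SMO was at 9.09, 9.36 and 9.04 CPM, also below every iEF library, and in Δ22 at 8.39, 11.2 and 8.28 CPM, overlapping iEF.

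SMO rose in iLuc over iEF by 0.85 ± 0.13 on the log2 scale (adjusted p = 2.205e-05) and in WT-EF by 0.45 ± 0.13 (adjusted p = 0.01356). Without replicate 3 of iEF the WT-EF call was lost (log2 fold change 0.38, adjusted p = 0.07048). That call was also lost with no low-count filter (adjusted p = 0.05037) and without the replicate block (0.05957). The mut9 difference from iEF was -0.044, with an interval from -0.32 to 0.23 (adjusted p = 0.8852), so that, unlike GLI1 and PTCH1, SMO was not called in mut9, and the interval lay below the value in iLuc. The DAF difference was -0.31 (interval -0.59 to -0.033, adjusted p = 0.1935). WT-EF was lower than iLuc by a log2 difference of -0.40 ± 0.13 (adjusted p = 0.03732), but the libraries of the groups overlapped and this call was lost without any of 6 libraries. They were replicates 1 and 3 of iLuc, replicates 1, 2 and 3 of WT-EF and replicate 1 of mut9. The adjusted p was then between 0.05375 and 0.1551. The call was also lost with ComBat-adjusted values and limma (adjusted p = 0.06189) and in a fit of only these groups (0.09788). Nor did it hold without the replicate block (0.1337) or with no low-count filter (0.1518).

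SUFU, the cytoplasmic inhibitor that binds GLI proteins, was at 9.94, 11.6 and 12.03 CPM in iLuc and at 14.8, 17.1 and 12.3 CPM in iEF. All iLuc libraries were below all iEF libraries, although the highest iLuc library was close to the lowest iEF library. The fold change was -0.40 ± 0.13 (log2, adjusted p = 0.01792), and the call was lost without replicate 1 of iEF (adjusted p = 0.06129), replicate 2 of iEF (0.1127) or replicate 1 of iLuc (0.08014). It was also lost in a fit of only these groups (0.2514), with ComBat-adjusted values (0.1567) and with no low-count filter (0.1084). SUFU was at 12.7, 14.7 and 13.8 CPM in WT-EF and its means in mut9, DAF, DAF-mut9 and Δ22 were between 13.4 and 15.1 CPM. SUFU was not called in any rescue group against iEF, and the log2 differences ran from -0.14 in Δ22 to 0.040 in DAF-mut9.

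GLI1, the activator that is both a pathway target and its amplifier, changed most among the 7 genes. It was at 9.43, 12.7 and 6.61 CPM in iLuc (264 to 573 counts) and at 0.233, 0.125 and 0.378 CPM in iEF (4 to 14 counts). The WT-EF libraries were at 2.02, 2.61 and 2.53 CPM (84 to 108 counts) and the mut9 libraries at 1.202, 1.69 and 1.05 CPM (36 to 69 counts). GLI1 thus did not overlap between iLuc, WT-EF, mut9 and iEF. In DAF it was at 0.218, 0.513 and 0.657 CPM, in DAF-mut9 at 0.334, 0.329 and 0.391 CPM and in Δ22 at 0.219, 0.573 and 0.328 CPM, with 8 to 25 counts per library, and each of these groups overlapped iEF.

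The GLI1 log2 fold change over iEF was 5.21 ± 0.37 in iLuc (adjusted p = 3.448e-10), 3.22 ± 0.37 in WT-EF (adjusted p = 9.451e-07) and 2.35 ± 0.38 in mut9 (adjusted p = 0.0001523). The ratio of mean CPM to that of iEF was 39.0 in iLuc, 9.72 in WT-EF and 5.35 in mut9, against 1.88 in DAF, 1.43 in DAF-mut9 and 1.52 in Δ22. The size of the difference varied between the replicate sets. The iLuc difference was 5.05, 6.17 and 3.95, the WT-EF difference 2.86, 3.91 and 2.59 and the mut9 difference 2.14, 3.30 and 1.35. All 9 of these were positive. The DAF log2 fold change was 0.83 ± 0.43 (interval -0.062 to 1.71, adjusted p = 0.3063), and its 3 sets were -0.078, 1.67 and 0.72. WT-EF reached 24.9% of the iLuc mean, with a log2 difference of -2.00 ± 0.29 (adjusted p = 3.794e-05).

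**Figure D2:**
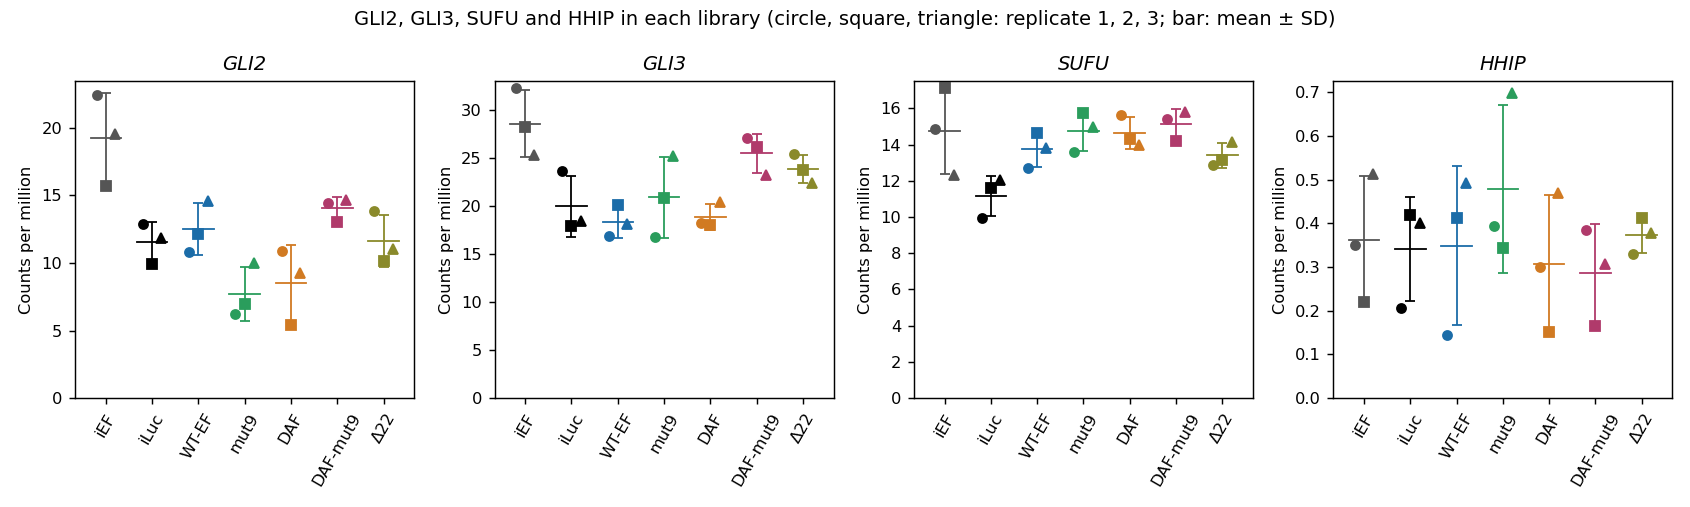
Level of GLI2, GLI3, SUFU and HHIP in CPM in each of the 21 libraries, by group, with the mean and SD of 3 replicates. GLI2 is highest in iEF and lowest in mut9 and DAF, SUFU is lowest in iLuc, and the HHIP groups overlap.

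GLI2, the main activator downstream of SMO, went the other way. It was at 22.5, 15.7 and 19.5 CPM in iEF and at 12.9, 9.92 and 11.9 CPM in iLuc. The mut9 libraries, at 6.24, 6.95 and 9.98 CPM, and the DAF libraries, at 10.9, 5.43 and 9.26 CPM, had the lowest group means, although some of them overlapped iLuc and Δ22. WT-EF was at 10.8, 12.1 and 14.6 CPM, Δ22 at 13.8, 10.15 and 11.007 CPM and DAF-mut9 at 14.4, 13.1 and 14.7 CPM. Every library of these 6 groups lay below every iEF library, Δ22 and DAF-mut9 included.

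The GLI2 log2 fold change from iEF was -0.73 ± 0.18 in iLuc (adjusted p = 0.002818), -0.60 ± 0.18 in WT-EF (adjusted p = 0.01653), -1.31 ± 0.19 in mut9 (adjusted p = 3.942e-05) and -1.19 ± 0.19 in DAF (adjusted p = 0.0003405). In Δ22, which has no EWS domain, it was -0.72 ± 0.18 (adjusted p = 0.03922). This Δ22 call was lost without the replicate block and without any of 13 libraries, all 3 of Δ22 and all 3 of iEF among them, with an adjusted p between 0.05015 and 0.2365. In DAF-mut9 it was -0.44 (interval -0.82 to -0.061, adjusted p = 0.2389). The WT-EF call was lost without replicate 1 of iEF (-0.52, adjusted p = 0.07393) or replicate 1 of WT-EF (-0.43, adjusted p = 0.1423), and with ComBat-adjusted values (-0.40, adjusted p = 0.08784).

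GLI3, the main repressor of the pathway when ligand is absent, was at 32.2, 28.2 and 25.3 CPM in iEF and at 23.7, 17.9 and 18.4 CPM in iLuc. It was at 16.8, 20.2 and 18.1 CPM in WT-EF, at 18.2, 18.0 and 20.4 CPM in DAF and at 16.8, 20.8 and 25.2 CPM in mut9. All libraries of these 4 groups lay below those of iEF, with the highest mut9 library at 25.2 CPM close to the lowest iEF library. The DAF-mut9 and Δ22 means, 25.5 ± 2.01 and 23.9 ± 1.505 CPM, were nearer to the iEF mean of 28.6 ± 3.50 CPM, and both groups overlapped iEF.

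GLI3 fell by 0.52 on the log2 scale in iLuc (SE 0.15, adjusted p = 0.008452), by 0.63 in WT-EF (SE 0.15, adjusted p = 0.002785) and by 0.60 in DAF (SE 0.15, adjusted p = 0.01666). The mut9 value of -0.45 missed the threshold (adjusted p = 0.05078). It passed under 5 other settings and in 5 fits that left out a library, but not in the other 16 such fits. Over all these settings and fits the adjusted p ran from 0.009635 to 0.289. Within the replicate sets the mut9 difference was -0.94, -0.44 and -0.0045. The iLuc call was lost without replicate 1 of iEF (adjusted p = 0.05893) and in a fit of only these groups (0.06758). The DAF call was lost without replicate 1 of iEF (0.08252), replicate 1 of DAF (0.09354) or replicate 2 of DAF (0.07757), and in a fit of only these groups (0.0611). In DAF, therefore, GLI2 and GLI3 passed the threshold against iEF and GLI1, PTCH1 and SMO did not. Against Δ22, however, neither GLI2 (adjusted p = 0.4016) nor GLI3 (adjusted p = 0.5321) was called in DAF.

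**Figure D3:**
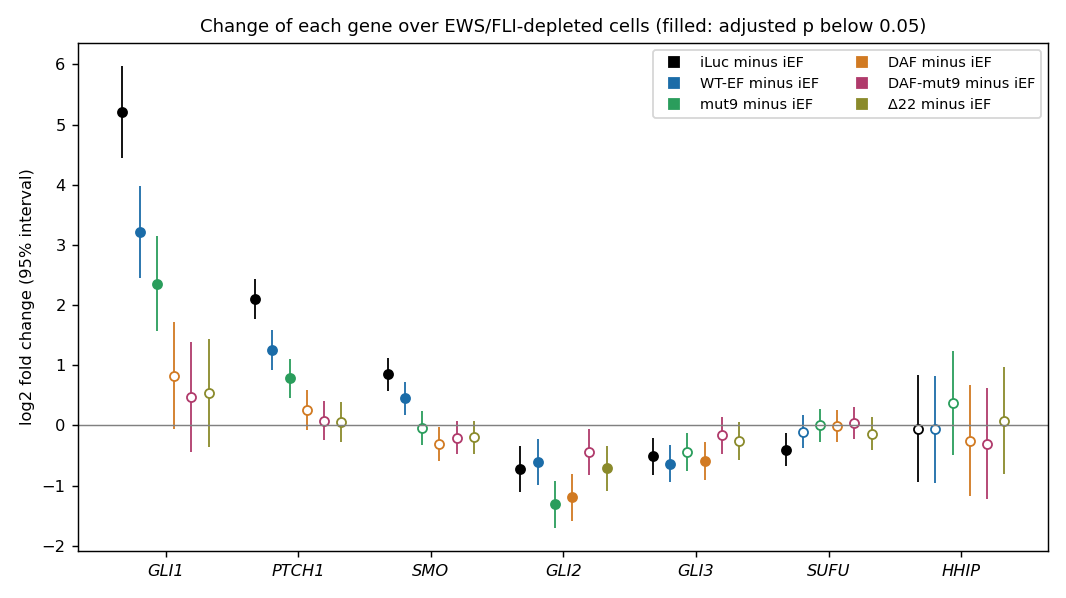
Fitted log2 fold change of each gene over iEF with its 95% interval, for iLuc and the 5 rescue groups, which share the 3 iEF libraries. Filled points passed an adjusted p of 0.05, and the GLI1 values run from 5.21 in iLuc to 0.47 in DAF-mut9.

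Ordered by mean level, GLI1 ran from iLuc through WT-EF, mut9, DAF, Δ22 and DAF-mut9 to iEF. Of the neighbours in this order iLuc and WT-EF differed, as did mut9 and DAF, while WT-EF and mut9 did not pass the threshold (adjusted p = 0.1028), nor did any pair from DAF down. PTCH1 followed iLuc, WT-EF, mut9, DAF, DAF-mut9, Δ22 and iEF, and the same neighbours passed. For SMO the order was iLuc, WT-EF, iEF, mut9, Δ22, DAF-mut9 and DAF, and iLuc and WT-EF as well as WT-EF and iEF differed. For GLI2, GLI3, SUFU and HHIP no neighbours in the order passed. Some of these neighbour tests belong to 6 comparisons that were added after the levels had been seen.

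Per length of exon, in RPKM (CPM per kilobase of exon), the genes also changed places. In iEF the levels were 2.49 ± 0.438 for GLI2, 2.24 ± 0.312 for SMO, 2.15 ± 0.346 for SUFU, 2.07 ± 0.254 for GLI3, 0.380 ± 0.057 for PTCH1, 0.054 ± 0.028 for GLI1 and 0.030 ± 0.012 for HHIP (SD, n = 3). In iLuc they were 4.04 ± 0.632 for SMO, 2.10 ± 0.664 for GLI1, 1.63 ± 0.185 for PTCH1, 1.63 ± 0.1597 for SUFU, 1.497 ± 0.194 for GLI2, 1.45 ± 0.230 for GLI3 and 0.029 ± 0.0099 for HHIP. GLI1 thus moved from the sixth of the 7 places in iEF to the second in iLuc.

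Comparison with Δ22 sets side by side groups that both carry a cDNA, with and without the EWS domain. The FLI1 row differed as well, at 49.5 CPM in Δ22 against 24.5 CPM in WT-EF and 30.7 CPM in mut9. In WT-EF against Δ22, 3 of the 7 genes were called (25.2% of all tested genes). GLI1 was higher by 2.68 ± 0.34 on the log2 scale (adjusted p = 5.214e-06), PTCH1 by 1.19 ± 0.16 (adjusted p = 6.707e-06) and SMO by 0.65 ± 0.13 (adjusted p = 0.0008479). In mut9 against Δ22, 3 were called (9.17% of all), with GLI1 higher by 1.81 ± 0.35 (adjusted p = 0.001499), PTCH1 higher by 0.72 ± 0.16 (adjusted p = 0.003952) and GLI2 lower (-0.60 ± 0.19, adjusted p = 0.04881). With ComBat-adjusted values the GLI1 call was lost (1.06, adjusted p = 0.0519). The GLI2 call was lost without any of 13 libraries (adjusted p 0.05086 to 0.2842), among them replicates 1 and 2 of Δ22 and of mut9. GLI2 in WT-EF differed from Δ22 by 0.11 (interval -0.27 to 0.49, adjusted p = 0.7299).

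In DAF and DAF-mut9 none of these genes was called against Δ22. In DAF against Δ22, edgeR and DESeq2 both called 0 of the 7 (0.972% of all tested genes in edgeR), and 2 genes, GLI2 (-0.48) and GLI3 (-0.34), had an unadjusted p below 0.05. The GLI1 difference was 0.29 with an interval from -0.54 to 1.11, and that of PTCH1 0.19 with an interval from -0.14 to 0.52. In DAF-mut9 against Δ22 both tools called 0 of the 7 and 0% of all tested genes, with 671 genes but none of the 7 at an unadjusted p below 0.05. The intervals for GLI1 (-0.91 to 0.78) and PTCH1 (-0.31 to 0.35) left room for moderate differences in either direction.

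WT-EF against iLuc measures how far the rescue went. In this comparison 3 of the 7 genes, GLI1, PTCH1 and SMO, were called as lower in WT-EF (18.3% of all tested genes were called). GLI2 and GLI3 differed by 0.13 (interval -0.26 to 0.51) and -0.12 (interval -0.43 to 0.19) and were not called. SUFU was higher in WT-EF in every library, by 0.30, but did not pass the test (adjusted p = 0.1299). Of the gap in mean CPM between iEF and iLuc, WT-EF covered 46.04% for SMO, 42.0% for PTCH1 and 23.0% for GLI1. These shares depend on the scale, since on the log2 scale the fold changes over iEF in WT-EF and iLuc were 0.45 and 0.85 for SMO, 1.26 and 2.10 for PTCH1 and 3.22 and 5.21 for GLI1.

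The shortened mut9 was compared directly with WT-EF, and 2 of the 7 genes were called (6.15% of all tested genes), both lower in mut9. GLI2 differed by -0.71 ± 0.19 (adjusted p = 0.02453) and SMO by -0.49 ± 0.13 (adjusted p = 0.02713). GLI1 (-0.86 ± 0.30, adjusted p = 0.1028) and PTCH1 (-0.47 ± 0.15, adjusted p = 0.07496) were lower in every mut9 library than in every WT-EF library and did not pass, although DESeq2 and a fit of only these groups called both. The GLI2 call was lost without replicate 2 of WT-EF (0.152), replicate 3 of WT-EF (0.1167) or replicate 1 of mut9 (0.1749). The SMO call was lost when any of the 6 libraries compared was left out (adjusted p 0.0549 to 0.1205), and without the replicate block neither gene was called.

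DAF was lower than WT-EF for GLI1, PTCH1, SMO and GLI2. In this comparison 4 of the 7 were called (24.9% of all tested genes). GLI1 differed by -2.39 ± 0.34 (adjusted p = 2.123e-05), PTCH1 by -1.002 ± 0.16 (adjusted p = 5.589e-05), SMO by -0.76 ± 0.13 (adjusted p = 0.0001973) and GLI2 by -0.59 ± 0.19 (adjusted p = 0.02417). The GLI1, PTCH1 and SMO libraries did not overlap, while those of GLI2 did and its call was lost without replicate 2 or 3 of either group (adjusted p 0.05622 to 0.1806). GLI3 (0.040, interval -0.27 to 0.35) and SUFU (0.096, interval -0.18 to 0.37) were not called.

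**Figure D4:**
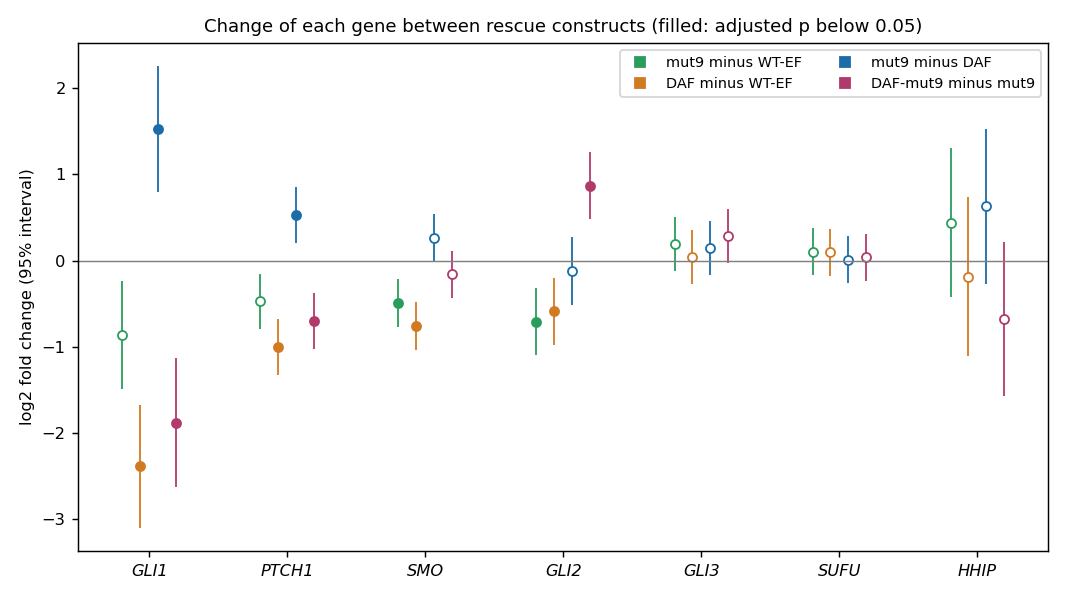
Fitted log2 fold change of each gene between rescue constructs with its 95% interval, for 4 direct comparisons. Filled points passed an adjusted p of 0.05. GLI2 is lower in DAF than in WT-EF (-0.59) but higher in DAF-mut9 than in mut9 (0.87).

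The deletion form mut9 and the substitution form DAF differed in 2 of the 7 genes (6.61% of all tested genes), both higher in mut9. GLI1 differed by 1.53 ± 0.35 (adjusted p = 0.009907) and PTCH1 by 0.53 ± 0.16 (adjusted p = 0.04567), and all mut9 libraries were above all DAF libraries for both. The GLI1 call was lost without replicate 1 of DAF (0.07588), replicate 2 of DAF (0.06263) or replicate 2 of mut9 (0.06455), and the log2 difference was then between 1.23 and 1.49. It was also lost with ComBat-adjusted values (0.94, adjusted p = 0.09078). The PTCH1 call was lost without any of 9 libraries (adjusted p 0.05086 to 0.2536), including all 3 of mut9 and replicates 1 and 2 of DAF, and also without the replicate block. SMO differed by 0.27 (interval -0.011 to 0.55, adjusted p = 0.2858), and GLI2, at the lowest level in both groups, by -0.12 (interval -0.51 to 0.27).

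In the shortened form the tyrosine changes were followed by lower GLI1 and PTCH1 and higher GLI2. In DAF-mut9 against mut9, 3 of the 7 genes were called (9.83% of all tested genes). GLI1 differed by -1.88 ± 0.36 (adjusted p = 0.001252), PTCH1 by -0.70 ± 0.16 (adjusted p = 0.004815) and GLI2 by 0.87 ± 0.19 (adjusted p = 0.0035), with no overlap between the libraries for any of the 3. The PTCH1 call was lost without replicate 2 of DAF-mut9 (adjusted p = 0.05272) and the GLI1 call with ComBat-adjusted values (-1.03, adjusted p = 0.05618). SMO, called lower in DAF than in WT-EF, differed by -0.16 (interval -0.44 to 0.12) between DAF-mut9 and mut9.

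Whether the tyrosine changes acted differently in the full-length and the shortened domain was tested as an interaction, and 1 of the 7 genes was called (3.33% of all tested genes). The tyrosines changed in DAF and in DAF-mut9 are not the same set, which cannot be told apart here from the length of the domain. For GLI2 the difference of the effects was 1.46 ± 0.26 on the log2 scale (adjusted p = 0.002559), since DAF was lower than WT-EF and DAF-mut9 higher than mut9. For GLI1 (0.51 ± 0.51, adjusted p = 0.7385) and PTCH1 (0.30 ± 0.22, adjusted p = 0.601) the interaction was not called, with intervals from -0.55 to 1.57 and from -0.16 to 0.76. SMO was at 0.60 ± 0.19 (adjusted p = 0.09198) and was called by DESeq2 (0.0123), with ComBat-adjusted values (0.04512), in a fit of only these groups (0.03984) and without replicate 3 of iLuc (0.04612).

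Across the 21 libraries, on log2 CPM with the replicate set removed, Pearson's r was 0.963 between GLI1 and PTCH1, 0.901 between PTCH1 and SMO and 0.865 between GLI1 and SMO. GLI2 and GLI3 had an r of 0.699, and GLI1 and SUFU of -0.71. The points fall into 7 groups that share treatments and library depth, so these values mostly describe the group levels and are given without a test. By the same measure, over 10779 genes with a mean of at least 5 CPM, the genes most like GLI1 were LIN28B (0.982), ENSG00000227579 (0.982) and SH3BGRL2 (0.979). Those most like PTCH1 were MACROH2A2 (0.982), AK7 (0.980) and PHKA2 (0.979), and those most like SMO were RFC4 (0.98), CEP85 (0.969) and EXOSC5 (0.967). For GLI2 they were LRP11 (0.845), ATRNL1 (0.824) and COA1 (0.805), for GLI3 XRCC1 (0.868), AUTS2 (0.836) and PHF19 (0.827) and for SUFU AHDC1 (0.856), KAZN (0.849) and JADE2 (0.843). HHIP was least like any gene, with CYTH2 (0.647), ZNF256 (0.583) and C14orf132 (0.538).

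The rest of the pathway was described with 5 role lists of 63 genes, of which 62 were tested. In iLuc against iEF 18 were higher and 30 lower, where 18.7% of all tested genes were higher and 22.4% lower, and the median log2 difference was -0.35 against 0.0061 over all genes. In WT-EF 12 were higher and 21 lower (11.4% and 16.9% of all tested genes), and in mut9 9 and 13 (6.22% and 8.33% of all). In DAF 3 were higher and 5 lower (7.42% of all tested genes called in either direction), in DAF-mut9 1 was higher (3.4%), and in Δ22 edgeR called none of them (2.67%). The lists are a description, and nothing is read from their counts about the pathway as such.

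**Figure D5:**
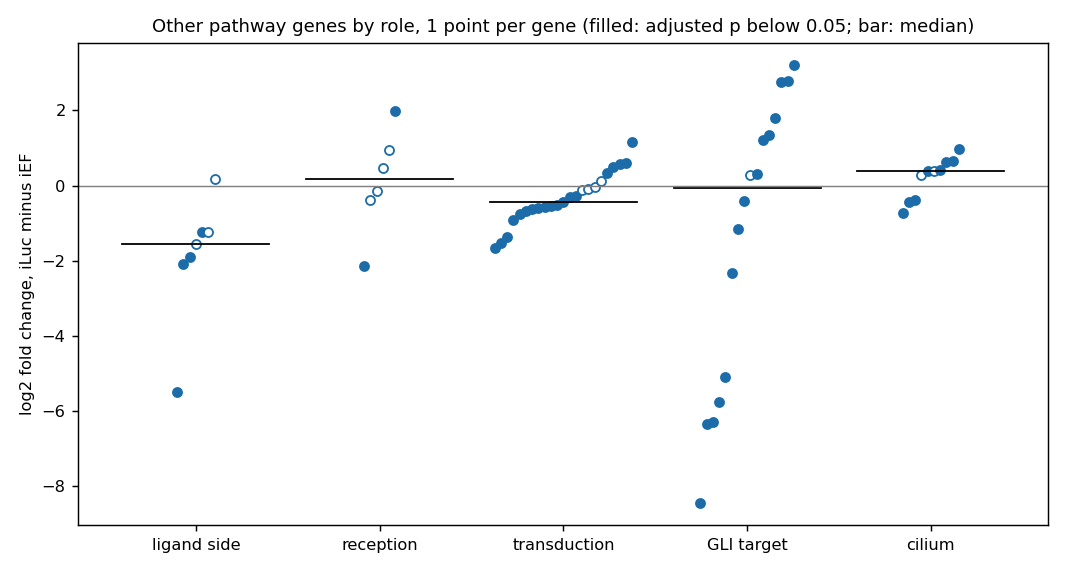
Fitted log2 fold change in iLuc against iEF of the 62 tested genes of 5 role lists, 1 point per gene, with the median of each list as a bar. Filled points passed an adjusted p of 0.05. The GLI target list spreads from -8.45 to 3.22, and the ligand side list has no called gene above 0.

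The ligands themselves were near 0. SHH averaged 0.208 CPM over the 21 libraries and did not exceed 21 counts, DHH averaged 0.038 CPM and IHH did not exceed 5 counts and was not tested. Of the 7 tested genes of ligand production and release 4 were lower in iLuc and none was higher (22.4% and 18.7% of all tested genes). HHAT, the acyltransferase that lipid-modifies hedgehog ligands, was at 12.6, 15.2 and 16.2 CPM in iEF and 4.01, 5.41 and 2.08 CPM in iLuc (log2 fold change -1.91 ± 0.25, adjusted p = 2.086e-06). SCUBE3, a secreted protein of the family that aids ligand release, was at 129, 108 and 88.2 CPM in iEF and at 2.72, 1.99 and 2.56 CPM in iLuc (-5.50 ± 0.33, adjusted p = 3.181e-11). SCUBE3 was at 8.41, 6.12 and 6.98 CPM in WT-EF but at 62.0, 62.9 and 51.9 CPM in DAF, and these libraries did not overlap.

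Of the 6 genes of ligand reception 1 was higher and 1 lower in iLuc (18.7% and 22.4% of all tested genes). GAS1, a coreceptor that presents ligand to PTCH1, was at 62.6, 83.8 and 55.2 CPM in iLuc and at 7.38, 46.1 and 7.19 CPM in iEF, where replicate 2 stood apart (1.99 ± 0.39, adjusted p = 0.0002654). GAS1 was at 22.5, 33.6 and 20.6 CPM in WT-EF and did not pass the test against iEF (adjusted p = 0.2852).

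Of the 23 transduction genes 5 were higher and 14 lower in iLuc (18.7% and 22.4% of all tested genes). GRK2, a kinase that phosphorylates SMO, rose from 33.9 ± 4.51 to 75.2 ± 6.30 CPM (SD, n = 3; log2 fold change 1.15, adjusted p = 3.489e-07) and was at 30.5 ± 2.27 CPM in WT-EF (adjusted p = 0.4323 against iEF). ULK3, a kinase that acts on GLI proteins, and KIF7, a ciliary kinesin that binds them, rose by 0.59 and 0.58 on the log2 scale in iLuc and by 0.65 and 0.59 in WT-EF. EVC, a ciliary partner of SMO, differed by -1.67, PRKACB, a catalytic subunit of the kinase that primes GLI proteins for processing, by -1.53, and GPR161, a ciliary receptor that raises the activity of that kinase, by -1.36, all called lower in iLuc. EVC was higher in replicate 3 of iEF, at 161 CPM, than in the other 2, at 81.2 and 73.6 CPM.

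Of the 16 genes listed as GLI targets 7 were higher and 8 lower in iLuc (18.7% and 22.4% of all tested genes), with a median of -0.064. BCL2, an inhibitor of apoptosis, was at 20.5, 17.1 and 20.3 CPM in iEF, 80.5, 71.4 and 49.6 CPM in iLuc and 75.1, 81.5 and 83.9 CPM in WT-EF, so its log2 fold changes of 1.80 and 2.06 over iEF were of like size. CCND1, the gene of cyclin D1, rose by 0.30 in iLuc (adjusted p = 0.03888). This call was lost without replicate 2 of iEF, replicate 2 or 3 of iLuc or replicate 2 of mut9, without the replicate block and in a fit of only these groups, with an adjusted p of up to 0.2902 and a log2 fold change as low as 0.15. SPP1, which encodes osteopontin, fell from 121.5 ± 69.1 to 0.325 ± 0.056 CPM (-8.45, adjusted p = 2.432e-09), GREM1, a BMP antagonist, from 35.4 ± 9.72 to 0.455 ± 0.497 CPM (-6.35, adjusted p = 7.605e-09) and FOXL1, a forkhead transcription factor, from 18.1 ± 9.13 to 0.519 ± 0.296 CPM (-5.09, adjusted p = 2.675e-09). In cells where GLI1 was high, genes of this list were therefore found in both directions. In DAF SPP1 was at 18.1, 3.92 and 7.76 CPM, below every iEF library.

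Of the 10 cilium genes 5 were higher and 3 lower in iLuc (18.7% and 22.4% of all tested genes). IFT172 and IFT88, subunits of the intraflagellar transport trains, and DYNC2H1, the heavy chain of the motor that returns them, rose by 0.96, 0.64 and 0.64 on the log2 scale. KIF3B, a kinesin motor subunit, fell by 0.45 and IFT57 by 0.38 in iLuc. The IFT57 call was lost without replicate 2 or 3 of iEF or replicate 3 of iLuc, with ComBat-adjusted values and in a fit of only these groups, and the KIF3B and KIF7 calls were lost in the last of these. DYNC2H1 was the gene of the 62 called in DAF-mut9 against iEF (0.32, adjusted p = 0.04748).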

How the data were processed

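A673 RNA-seq libraries of 7 groups with 3 replicates were analysed. The authors aligned paired-end reads to hg19 with STAR (2.5.1b in the submitters' processing notes) and deposited raw counts per Ensembl gene (HTSeq), and a ComBat-adjusted table, a signal without library scaling. The authors' own fold changes and p-values were not used. The annotation release is not given in the sources used here, and 55538 of the 57820 gene IDs had a symbol. The 5 summary lines of the count table are blank, and unassigned reads could not be given as a share.

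Raw counts were fitted across all genes with edgeR 4.0.16 (quasi-likelihood, TMM) in R 4.3.3, with group and replicate set as terms, over the 30549 genes averaging 1 or more counts in 21 libraries of 32.9 to 46.2 M counts (M, mega). The replicate set was kept as a block because the authors adjusted for it. Samples with the same number had correlated deviations from their group means (median r 0.158 over 63 pairs, range -0.126 to 0.541) against a median of -0.0906 for different numbers, and 42 pairs exceeded 0.1. P-values were Benjamini-Hochberg adjusted over all tested genes, with calls below 0.05. SE and 95% intervals are of the fitted log2 fold change. Overlap between the libraries of groups is described without a share over all genes, and no test rests on it. Scripts were tested on simulated data. The comparisons were 16, and 6 were added for neighbours in level.

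Alternatives were DESeq2 1.42.0, no block, RLE factors, no low-count filter, filterByExpr, only the groups compared, ComBat-adjusted values with limma 3.58.1 (log2 of the value per M plus 0.5), a 2-fold rule and leaving out each library.

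The genes and lists were chosen with earlier results of these data known. All 7 hedgehog genes are named. From each role list up to 3 genes per direction are named by size of change in iLuc against iEF, among those called with a mean of at least 5 CPM and the same sign in all 3 replicate sets, and the ligands were named afterwards. A gene that this rule names is not reported here.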

Additional observations from a re-analysis of the deposited data

Results flagged for a closer look

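GLI2 was the only hedgehog gene called in the test of whether tyrosine-to-alanine changes had different effects in the full-length EWS domain and its shortened form. The difference of the effects was tested as an interaction in edgeR and was 1.46 ± 0.26 on the log2 scale (adjusted p = 0.002559). The changed tyrosines are not the same set. DAF keeps SYGQ2 intact, and in DAF-mut9 all repeat tyrosines of mut9 are changed. GLI2 was lower in DAF (8.51 ± 2.79 CPM, SD, n = 3) than in WT-EF (12.5 ± 1.93 CPM) and higher in DAF-mut9 (14.0 ± 0.867 CPM) than in mut9 (7.72 ± 1.98 CPM). Within the DAF group replicate 2 was lower, at 5.43 CPM, than the others at 10.9 and 9.26 CPM. The interaction remained called in each of the other settings and when any library was left out. The groups held 3 libraries, so no single library was tested for standing apart.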

How the results depend on the processing

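No hedgehog gene called in the main analysis changed direction under any alternative. The calls of GLI1 and PTCH1 in iLuc and WT-EF against iEF, and in WT-EF against Δ22, held in every setting. Under the 2-fold rule the number of hedgehog genes called fell from 6 to 2 in iLuc against iEF, from 5 to 2 in WT-EF against iEF, from 4 to 2 in DAF against WT-EF, from 3 to 1 in WT-EF against iLuc, mut9 against Δ22 and DAF-mut9 against mut9, from 2 to 1 in DAF against iEF and mut9 against DAF, from 2 to 0 in mut9 against WT-EF and from 1 to 0 in Δ22 against iEF, as the rule asks for more. Without the replicate block 1 became 0 in Δ22 against iEF, 2 became 0 in mut9 against WT-EF and 2 became 1 in mut9 against DAF. Without the block the calls of SMO in WT-EF against iEF and against iLuc, and of GLI2 in mut9 against Δ22 and in DAF against WT-EF, were also lost. With ComBat-adjusted values and limma the count was 0 in Δ22 against iEF, 1 in mut9 against Δ22 and in mut9 against DAF, and 2 in the interaction. DESeq2 gave 4 in mut9 against WT-EF and 2 in the interaction. Fitting only the groups compared gave 4 in iLuc against iEF (GLI3 and SUFU lost), 1 in DAF against iEF, 4 in mut9 against WT-EF, 1 in mut9 against DAF and 2 in the interaction, and no low-count filter gave 1 in mut9 against DAF. The cause was not tested. Leaving out 1 library gave 4 to 6 in iLuc against iEF, 1 to 2 in DAF against iEF, 0 to 1 in Δ22 against iEF, 0 to 3 in mut9 against WT-EF, 0 to 2 in mut9 against DAF and 1 to 2 in the interaction. With no low-count filter 14 of all genes were called in DAF-mut9 against Δ22, where 0 were otherwise. Depth limits HHIP in all groups and GLI1 in iEF, DAF, DAF-mut9 and Δ22, where a library held at most 25 counts.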
